A study of Mus musculus with 9 samples.

Results

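The clustered replication-dependent histone genes of the mouse were examined in RAW264.7 cells, an established mouse macrophage line, with and without functional C/EBPδ, a bZIP transcription factor encoded by Cebpd. Members were taken by name, as every gene whose GRCm38 symbol begins with Hist1h, Hist2h, Hist3h or Hist4h, which gave 70 of the 55487 genes counted. Of these, 56 lay in the Hist1 group on chromosome 13, 10 in Hist2 on chromosome 3, 3 in Hist3 on chromosome 11 and 1 in Hist4 on chromosome 6. By class there were 6 linker histone (H1), 20 H2A, 19 H2B, 12 H3 and 13 H4 genes, and 3 of the 70 were annotated as pseudogenes (Hist1h2aj, Hist1h2al and Hist3h2bb-ps). Total RNA depleted of ribosomal RNA was sequenced from unstimulated cells of 3 genotypes with 3 libraries each. Wild-type cells were RAW264.7 cells labelled wild type for Cebpd. For ΔTAD macrophages, pairs of CRISPR guides had cut Cebpd on either side of the stretch that encodes its transactivation domain, and lines in which the resulting deletion shifted the reading frame served as knock-out macrophages. The design text describes 3 independent clones, but the sources used here do not say which library came from which clone, nor whether the wild-type libraries came from clones, so the p-values measure the spread between these libraries only.

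Replication-dependent histone genes supply the core and linker histones that package newly copied DNA, and their mRNAs accumulate during S phase. Unlike other metazoan messages they mostly end without a poly(A) tail. A conserved stem-loop just past the stop codon, bound by SLBP and cut with the help of the U7 snRNP, forms the end instead, while NPAT drives their transcription under cyclin E/CDK2. In bulk RNA, a change in the number of cells in S phase and a change in histone mRNA per cell cannot be told apart.

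Libraries held 16113306 to 20981829 reads counted on genes, and the 70 histone genes took 0.598% to 0.703% of them. ΔTAD replicate 1 stood apart, since its counts differed from those of the other ΔTAD libraries by a chi-square of 167 per gene, against 2.09 to 4.53 between other replicates, and 16.3% of its reads aligned at more than 1 place against 11.8% to 13.6% elsewhere. The members' counts of calls against ΔTAD libraries are also given without it, and named calls lost without it are stated. Levels are counts per 1000000 (CPM) scaled by edgeR's trimmed mean of M-values, and a gene was called where edgeR's quasi-likelihood test gave a Benjamini-Hochberg adjusted p under 0.01 over all 14312 genes tested. Cebpd itself stood at 6.13, 7.29 and 6.12 CPM in the wild-type, 5.22, 5.50 and 5.61 in the knock-out and 4.90, 5.23 and 6.19 in the ΔTAD libraries, and was not called (adjusted p = 0.085 and 0.0931). A gene-level count does not resolve the edited stretch of Cebpd, so these values do not check the genotypes. All 7 macrophage markers were detected, with Lyz2, the gene of lysozyme, at 1167 ± 61.9 CPM in wild-type cells (SD, n = 3), while the defining fibroblast and epithelial genes Col1a2 and Epcam had no read in any library, and of 17 markers of other cell types Lck, a T cell kinase, was the only gene above the filter on low counts, at 6.89 CPM in the wild-type. Markers moved between genotypes as well. Of the 7 macrophage markers 5 were called higher in the knock-out and 6 in the ΔTAD, with Lyz2 higher by 0.86 and 1.84 on the log2 scale, and 4 were lower in the knock-out than in the ΔTAD. The matching shares over all genes tested were 22.8%, 26.3% and 19.1%. With library size alone 3 of the 7 were higher in each mutant. Lck fell by 0.49 and 0.44, calls lost in 1 and 4 of 17 refits, both without wild-type replicate 2. The part of these changes in the histone values was not tested.

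The 3′ stem-loops are shown first, since they define the family and since their letters separate H4 from the other classes. A 16-base stem-loop matching GGNNNTTNTNANNNCC on the transcript strand was found after the stop codon in a GENCODE transcript of 46 of the 70 members (65.7%), and the same pattern occurred anywhere in 2.66% of 141689 transcripts of other genes. It began 21 to 58 bases after the stop codon (median 31). In 18 of the 24 members without a match the annotated transcript ended within 15 bases of the stop codon or had no coding stretch. Only 8 different stem-loops occurred. The form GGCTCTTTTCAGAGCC was carried by 26 members of the H1, H2A, H2B and H3 classes, whereas all 12 H4 genes with a match had GGCCC or GGTCC in the first arm, and 7 of them had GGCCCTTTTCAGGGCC. Each line gives the stem-loop in capitals within 30 bases of the transcript.
Hist3h2ba: ccaaaGGCTCTTTTCAGAGCCaccttccaa
Hist1h2ab: acaaaGGCTCTTTTCAGAGCCacccacatc
Hist1h2bk: ccaaaGGCTCTTTTAAGAGCCactaaacca
Hist1h4f: tcaaaGGCCCTTTTCAGGGCCacccacttt
Hist4h4: acaaaGGCCCTTTTCAGGGCCcacaaagca
Hist1h4i: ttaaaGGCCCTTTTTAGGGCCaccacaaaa
Hist1h4b: caaaaGGTCCTTTTCAGGACCactcactga

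The 250 bases before the transcription start were available from RefSeq (build GRCm38.p6) for 61 members. The CCAAT box, searched as CCAAT or ATTGG, occurred in 50 of them (82.0%) against 33.8% of 32851 mouse promoters of the same length, and it was in all 5 H1, 18 H2A and 16 H2B promoters but in 3 of 12 H4 promoters. The TATA box, searched as TATAAA or TTTATA, occurred in 45.9% against 12.4%. The octamer ATTTGCAT, or ATGCAAAT on the other strand, occurred in 7 H2A and 6 H2B promoters and in none of the other classes, 21.3% in all against 1.60%. A loose C/EBP core, TTNNGNAA or TTNCNNAA, was found in 36 (59.0%) against 36.8%, in 33 of them clear of the letters of the other motifs, and the palindrome TTGCGCAA in none against 0.164%. Such matches describe letters and are not binding sites. Promoters are printed for the H2B gene with the largest change (chr11:58948661-58948910, plus strand), for Hist3h2a beside it (chr11:58954513-58954684, plus strand), for Hist1h2ah (chr13:22035644-22035820, minus strand), whose upstream bases lie between it and Hist1h2bk, and for Hist1h1b, the linker histone that changed in opposite directions (chr13:21780626-21780875, minus strand). Those of Hist3h2a and Hist1h2ah are cut to 172 and 177 bases, where the neighbouring gene begins. Capitals mark the CCAAT box, TATA box and octamer matches.
Hist3h2ba: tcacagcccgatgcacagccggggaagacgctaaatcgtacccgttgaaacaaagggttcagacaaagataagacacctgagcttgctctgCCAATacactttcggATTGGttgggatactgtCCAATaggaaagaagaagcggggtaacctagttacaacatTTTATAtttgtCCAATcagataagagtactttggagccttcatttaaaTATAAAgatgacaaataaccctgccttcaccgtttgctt
Hist3h2a: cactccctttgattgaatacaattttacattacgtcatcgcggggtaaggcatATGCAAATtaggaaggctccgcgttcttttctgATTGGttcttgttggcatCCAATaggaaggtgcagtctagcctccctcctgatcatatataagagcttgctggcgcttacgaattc
Hist1h2ah: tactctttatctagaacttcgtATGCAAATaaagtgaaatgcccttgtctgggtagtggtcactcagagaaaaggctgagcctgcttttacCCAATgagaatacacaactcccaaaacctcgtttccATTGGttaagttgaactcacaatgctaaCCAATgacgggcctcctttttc
Hist1h1b: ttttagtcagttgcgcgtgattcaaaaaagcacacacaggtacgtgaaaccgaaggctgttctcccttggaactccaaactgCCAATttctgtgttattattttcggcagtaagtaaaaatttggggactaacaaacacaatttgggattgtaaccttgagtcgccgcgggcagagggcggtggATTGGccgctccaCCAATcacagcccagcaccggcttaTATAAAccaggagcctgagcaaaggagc

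Shared sequence bears on how reads of these genes can be counted. The 13 H4 genes encode a single protein, and 7 of the 12 H3 genes encode the same H3. Of the 50-base stretches in a member's transcripts, as long as a read, a median of 48.2% were also in a transcript of a gene elsewhere, from a median of 1.13% in H1 and 39.5% in H4 to 43.8% in H2B, 57.2% in H3 and 73.2% in H2A. Such reads have more than 1 possible origin, so levels of members rich in shared stretches are uncertain. For Hist1h2ah the share was 90.7% and for Hist1h2ai 90.1%, while it was 22.1% for Hist3h2ba, 8.52% for Hist4h4 and 0 for Hist1h1a, Hist1h1b and Hist2h2bb. Calls were not confined to either kind. Between knock-out and wild-type, 8 of 27 members at or above 50% shared and 8 of 35 below it were called. Between ΔTAD and wild-type these were 8 of 27 and 15 of 35. Of all genes tested, 22.8% were higher and 22.4% lower in the knock-out, and 26.3% and 23.4% in the ΔTAD. Against the ΔTAD, 12 of 27 members at or above 50% shared were lower in the knock-out, and 9 of 35 below it. These calls were thus more frequent among members rich in shared stretches, against 19.1% of all genes. The part of shared stretches in the calls was not tested. Overlapping annotation also makes counts uncertain. On the same strand, Hist2h2bb overlaps Gm42743 and Hist1h1e overlaps Hist1h2be. Many H2A genes overlap a gene on the opposite strand, and the strand setting of the counting is not known. The part of these overlaps was not tested either.

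Of the 70 members 62 passed the filter on low counts and were tested. Hist2h2aa1 and Hist2h3c1 had no read counted in any of the 9 libraries. With counting error only, a count of 0 allows up to 0.210 CPM in ΔTAD replicate 1, the library with the highest such limit (3 counts). Both genes overlap Gm20634 on the same strand, so their counts of 0 are uncertain and the limit need not hold for them. Hist2h2aa1 shared 96.3% of its stretches, and Hist2h2aa2, which shared 100%, kept only 2.38 to 3.59 CPM. Hist1h1t, the testis linker histone, had 0 to 5 reads, and Hist1h2aj, Hist1h2ao, Hist1h4m, Hist1h2br and Hist1h2aa had 0 to 10. Mean wild-type levels of the tested members ran from 2.51 CPM for Hist3h2a to 525 for Hist1h1d.

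Compared per kilobase of exon, the highest wild-type levels within H1 were those of Hist1h1b at 579 ± 16.8 CPM per kb (SD, n = 3), Hist1h1a at 492 ± 12.0 and Hist1h1c at 279 ± 9.91. Hist2h2ac led H2A at 339 ± 24.6 CPM per kb, ahead of Hist1h2ak at 288 ± 23.9 and Hist1h2ab at 139 ± 7.50. Hist2h2bb led H2B at 887 ± 28.9, the highest level per kb of any class leader, followed by Hist1h2bb at 244 ± 10.9 and Hist1h2bg at 177 ± 12.7. In H3 the leaders were Hist1h3e at 134 ± 13.2, Hist2h3b at 125 ± 8.01 and Hist1h3g at 93.8 ± 3.87, the order of the first 2 lying within their spread. In H4 they were Hist1h4k at 432 ± 51.9, Hist1h4h at 315 ± 41.7 and Hist1h4d at 291 ± 24.1, of which the last 2 did not differ beyond their spread from each other or from Hist1h4b at 288 ± 20.9. These levels divide by annotated exon length, which for 23 members runs 100 bases or more past the stem-loop.

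Comparing knock-out with wild-type macrophages asks what loss of C/EBPδ does to histone transcripts. The largest differences were falls of 2 H2B genes of the small Hist3 group, and 13 members fell while 3 rose. These are 20.97% and 4.84% of the 62 members, against 22.4% of all genes tested called lower and 22.8% called higher. The median log2 fold change was -0.06 over the members and -0.001 over all genes. By class, H2B held 6 of the falls, H1, H2A and H4 2 each and H3 1.

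Hist3h2ba, an H2B gene (ENSMUSG00000056895, chr11:58948920-58949533), stood at 7.43, 6.89 and 7.75 CPM in wild-type libraries and at 2.53, 3.08 and 3.34 in knock-out libraries. Every knock-out library lay below every wild-type library, a 2.47-fold lower level (log2 fold change -1.30 ± 0.14 (SE), adjusted p = 2.82e-08). Hist3h2bb-ps, a neighbouring H2B pseudogene, went from 6.68, 5.96 and 6.30 CPM to 2.48, 2.72 and 2.61, again without overlap (-1.28 ± 0.15, adjusted p = 5.49e-08). The gene that shared most 50-base stretches with each of these was the other. Hist1h2ah, an H2A gene at chr13:22035164-22035568, went from 27.3, 26.3 and 25.1 CPM to 17.4, 15.3 and 18.8 (-0.61 ± 0.07, adjusted p = 1.73e-07). Its head-to-head H2B partner Hist1h2bk had 64.6, 60.5 and 60.9 CPM in the wild-type and 39.3, 42.1 and 48.2 in the knock-out (-0.52 ± 0.05, adjusted p = 1.12e-08). Both groups of this pair were apart as well.

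Hist4h4, the lone H4 gene on chromosome 6, was at 317, 254 and 274 CPM in the wild-type and at 180, 199 and 235 in the knock-out, a fall with no overlap in spite of wide replicates (-0.46 ± 0.09, adjusted p = 6.67e-05). In Hist2 the H3 gene Hist2h3b fell from 64.8, 57.0 and 60.5 CPM to 49.2, 53.7 and 52.9 (-0.23 ± 0.05, adjusted p = 3.69e-04). The linker histone Hist1h1a fell from 375, 360 and 359 CPM to 291, 290 and 297 (-0.32 ± 0.04, adjusted p = 3.72e-08). The 3 members that rose were Hist1h2ab, Hist1h4f and Hist1h3b. Hist1h2ab, an H2A gene, rose from 68.6, 66.5 and 61.6 CPM to 78.9, 73.3 and 78.0 without overlap (0.23 ± 0.05, adjusted p = 4.82e-04). Hist1h4f rose from 94.7, 92.8 and 91.1 CPM to 105.3, 107.8 and 109.9 (0.21 ± 0.04, adjusted p = 1.76e-05). Hist1h3b gave 0.17 ± 0.05 with overlapping libraries and lost its call in 9 of 17 refits. Of the 13 falls 10 were called in every refit with other scalings, filters, tools or a library left out, as were Hist1h2ab and Hist1h4f. Without wild-type replicate 1, 6 members were called higher and the median became 0.002.

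**Figure D1:**
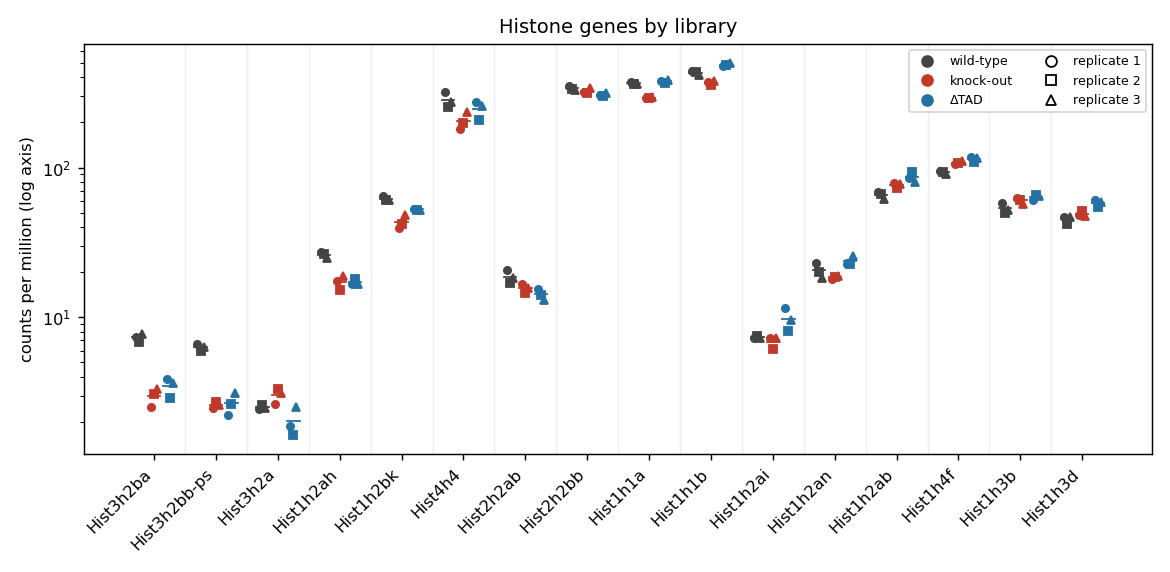
Level of 16 histone genes in each library, as CPM on a log axis. Colours give the genotype, symbols the replicate and short lines the mean of 3 libraries. The knock-out and ΔTAD libraries of Hist3h2ba, Hist3h2bb-ps and Hist1h2ah all lie under the wild-type libraries, while Hist1h2ab and Hist1h4f lie above them.

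Comparing ΔTAD with wild-type macrophages asks what loss of the transactivation domain alone does, with the same wild-type libraries as controls. Most members that changed were modestly higher, 17 against 6 lower, and the Hist3 H2B genes again showed the largest falls. The 17 are 27.4% of the members, against 26.3% of all genes called higher, and the 6 are 9.68% against 23.4% called lower. The median was 0.07 over the members and -0.003 over all genes. Higher members were spread over H1 (4 of 5 tested), H2A (4 of 16), H2B (2 of 18), H3 (3 of 11) and H4 (4 of 12), and all 17 were in Hist1. These small rises depend on scaling. With library size alone, which moves the median of all genes from -0.003 to -0.09, 4 members were higher and the median of the members became -0.02. Without ΔTAD replicate 1, 12 were higher, all among the 17, and 7 were lower, including the 6. Without wild-type replicate 2, wild-type replicate 3 or ΔTAD replicate 3, 9 were higher.

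Hist1h2ab was the highest, at 85.6, 94.0 and 80.1 CPM in ΔTAD libraries against 61.6 to 68.6 in the wild-type (0.40 ± 0.05, adjusted p = 1.66e-07). Hist1h3d, an H3 gene, had 60.6, 54.4 and 59.3 CPM against 46.7, 42.0 and 46.7 (0.36 ± 0.05, adjusted p = 1.67e-06). Hist1h4f stood at 118, 109 and 115 CPM, above each wild-type library (0.29 ± 0.04, adjusted p = 1.19e-07). These and Hist1h2ak, at 134, 134 and 144 CPM against 121.8, 103.2 and 114.4 (0.28 ± 0.05, adjusted p = 1.54e-05), are the 4 rises called in every refit. Hist1h2ai, of low level at 11.5, 8.12 and 9.61 CPM against 7.23, 7.52 and 7.27, gave 0.39 ± 0.12 (adjusted p = 0.0063) and lost its call in 8 of 17 refits, including DESeq2, limma-voom, library size alone, each wild-type library left out and ΔTAD replicate 1 or 3 left out.

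Among the falls, Hist3h2ba had 3.85, 2.88 and 3.66 CPM in ΔTAD libraries, a 2.14-fold lower level than in the wild-type (-1.10 ± 0.14, adjusted p = 2.15e-07). Hist3h2bb-ps had 2.24, 2.64 and 3.14 CPM (-1.22 ± 0.14, adjusted p = 8.03e-08). Hist1h2ah had 16.6, 18.1 and 16.8 CPM (-0.61 ± 0.07, adjusted p = 1.27e-07). No ΔTAD library of the 3 genes reached a wild-type library. Hist1h2bk, at 53.0, 52.3 and 52.3 CPM, fell less than in the knock-out against the same controls (-0.24 ± 0.05, adjusted p = 3.62e-04), and the knock-out libraries were lower than the ΔTAD libraries directly (-0.28 ± 0.06, adjusted p = 2.17e-04), a call lost with library size alone. In Hist2 the H2A gene Hist2h2ab fell from 20.8, 16.9 and 18.2 CPM to 15.5, 14.1 and 12.9 (-0.41 ± 0.09, adjusted p = 2.61e-04). Hist2h2bb, the abundant H2B gene, fell from 351, 333 and 330 CPM to 305, 302 and 315 (-0.14 ± 0.04, adjusted p = 0.00304), which was not called without wild-type replicate 1 or ΔTAD replicate 2.

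Among the other Hist2 members no call was made between either mutant and the wild-type. Hist2h2ac gave -0.08 and 0.04 in knock-out and ΔTAD macrophages, Hist2h2be -0.01 and 0.19, Hist2h3c2 -0.01 and 0.06, Hist2h2aa2 -0.13 and 0.06, and Hist2h4 -0.09 and 0.02. Hist4h4 in ΔTAD macrophages had 275, 207 and 258 CPM, which overlapped the wild-type (-0.19 ± 0.09, adjusted p = 0.0546).

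**Figure D2:**
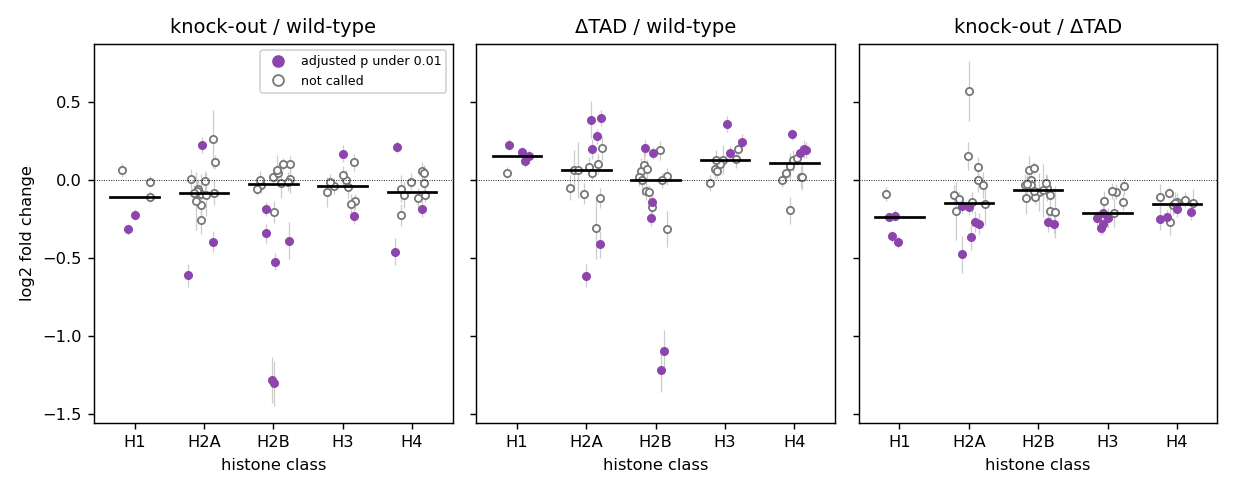
Log2 fold change of the 62 tested histone genes by class in the 3 comparisons, with the SE as grey lines and the class median as a black bar. Filled points passed an adjusted p under 0.01. In the last panel 56 of 62 points lie under 0, and the points near -1.2 in H2B in the first and second panels are Hist3h2ba and Hist3h2bb-ps.

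Set directly against each other, knock-out macrophages had lower levels than ΔTAD macrophages of 21 of the 62 tested members and higher levels of 0, while 41 were not called. These are 33.9% against 19.1% of all genes called lower, and 0% against 13.9% called higher. Beside the count of 0 from edgeR, 2 members were higher at an unadjusted p under 0.05, and DESeq2 and limma-voom also called 0 higher. The median was -0.14 over the members and -0.03 over all genes, and 56 of 62 were under 0. The calls were 4 of 5 H1, 6 of 16 H2A, 2 of 18 H2B, 5 of 11 H3 and 4 of 12 H4 genes, and all tested H1, H3 and H4 genes were under 0. With library size alone 5 were lower and 1 was higher, and the median was -0.07 while that of all genes was 0.04. Without ΔTAD replicate 1, 15 were lower, of which 14 were among the 21.

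Linker histones, which bind the DNA between nucleosomes, held 34.0% of the summed histone CPM in wild-type cells. This sum is not divided by exon length, and shared stretches differ between classes, so it is not a share of histone mRNA molecules. Hist1h1b stood at 441, 433 and 416 CPM in the wild-type, 372, 356 and 379 in the knock-out and 475, 482 and 502 in ΔTAD libraries. No group overlapped another, and it was the only member called in opposite directions against the wild-type (-0.22 ± 0.04, adjusted p = 1.12e-05, and 0.18 ± 0.04, adjusted p = 1.57e-04). The direct difference was -0.40 ± 0.04 (adjusted p = 3.54e-09) and was called in every refit, whereas the rise in ΔTAD macrophages was not called with library size alone (0.09). Hist1h1a had 377, 365 and 386 CPM in ΔTAD libraries, within reach of the wild-type, and was lower in the knock-out than there (-0.36 ± 0.04, adjusted p = 1.30e-08). Hist1h1c gave -0.01 in the knock-out and 0.23 in ΔTAD macrophages, and Hist1h1d -0.11 and 0.12. The ΔTAD call of Hist1h1c was lost with library size alone. Those of Hist1h1d and of Hist1h1e, the other H1 gene called higher there, were lost in 8 and 6 of 17 refits, both including library size alone. The call of Hist1h1e was also lost without ΔTAD replicate 1. The summed level of the 6 H1 genes ran from 2113 to 2240 CPM in the wild-type, 1960 to 2060 in the knock-out and 2349 to 2478 in ΔTAD libraries. With library size alone ΔTAD replicate 1 had 2092 CPM of H1, under the wild-type libraries (2166 to 2287), and the other ΔTAD libraries stayed above them at 2345 and 2481. Outside H1, Hist1h2ai was 1.39-fold lower in the knock-out (-0.48 ± 0.12, adjusted p = 0.00213), a call lost without ΔTAD replicate 1 or without knock-out replicate 2, and Hist1h2an, with 17.9, 18.6 and 18.8 CPM against 22.7, 22.9 and 25.6, gave -0.37 ± 0.08 (adjusted p = 5.78e-04) and was called in every refit.

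**Figure D3:**
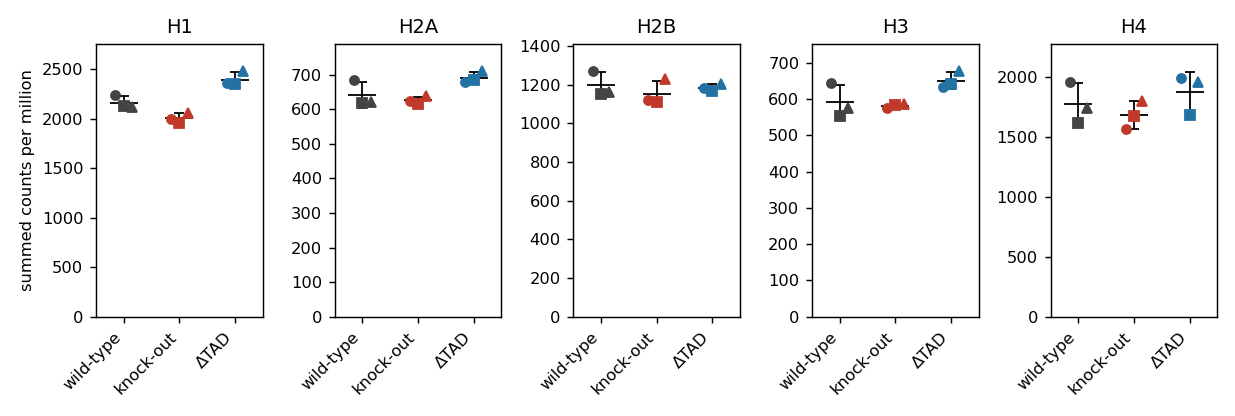
Summed CPM of the members of each class in the 9 libraries, with symbols for replicates and bars for the mean and SD of 3 libraries. The 3 genotypes do not overlap for H1, except that ΔTAD replicate 1 falls to 2092 CPM with library size alone, whereas H4 libraries of 1 genotype spread as widely as the genotypes.

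Summed over the 70 members, the level was 6363 ± 385 CPM in the wild-type, 6046 ± 229 in the knock-out and 6795 ± 254 in ΔTAD libraries (SD, n = 3), ratios of 0.950 and 1.07 to the wild-type. The wild-type libraries, at 6800, 6075 and 6213 CPM, overlapped both mutants, and the lowest ΔTAD library (6520) lay above the highest knock-out library (6309). As a share of counted reads, without further scaling, ΔTAD replicate 1 (0.607%) lay under knock-out replicate 3 (0.639%). Hist3 genes summed to 15.5 to 16.6 CPM in the wild-type, 7.65 to 9.12 in the knock-out and 7.15 to 9.33 in the ΔTAD. Members of most classes kept a common order of replicates within a genotype. Wild-type replicate 1 was the highest wild-type library for all 5 tested H1, 11 H3 and 12 H4 genes, 15 of 18 H2B and 9 of 16 H2A genes. Among the H4 genes knock-out replicate 1 was the lowest knock-out library for 11 and ΔTAD replicate 2 the lowest ΔTAD library for 12, and among the H1 genes knock-out replicate 3 and ΔTAD replicate 3 were the highest of their genotype for 5 of 5. The H4 sum had a coefficient of variation of 9.84%, 6.93% and 9.03% in the wild-type, knock-out and ΔTAD, against 3.17%, 2.49% and 3.004% for H1. The part of this shared spread in the calls was not tested.

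The Hist1 genes lie in 2 stretches of chromosome 13 with 1 pseudogene, Hist1h2al, far beyond, and the falls in the knock-out were unevenly placed along them. This split, at gaps over 1000 kb, was made after the values were seen and is a description. Over all genes tested, 22.4% were called lower and 22.8% higher in the knock-out, and 23.4% and 26.3% in the ΔTAD. In the first stretch, from Hist1h2bl to Hist1h2bj (chr13:21715763-22043676), 8 of 20 tested members were lower in the knock-out, 0 were higher, and the median was -0.14. In the second, from Hist1h4h to Hist1h2aa (chr13:23531050-23934851), 1 of 29 was lower, 3 were higher, and the median was -0.01. Refitted without ΔTAD replicate 1, the lower counts were 9 and 3, and with library size alone 6 and 2. Hist1h2ah, Hist1h2bk, Hist1h4i, Hist1h2ag and Hist1h2bj, which follow each other within 8.51 kb, were all called lower. The run was picked with these calls in view, so that all of it was lower is a description and no test. In the same order, 90.7%, 74.2%, 28.9%, 78.9% and 59.4% of their 50-base stretches were shared with genes elsewhere. Hist1h4i and Hist1h2bj were the weakest, at -0.18 and -0.19, and lost their calls in 5 and 2 of 17 refits, both without wild-type replicate 1 and without knock-out replicate 1. Hist1h2ag had 29.3, 28.6 and 29.1 CPM in the wild-type and 22.0, 20.1 and 23.9 in the knock-out (-0.40 ± 0.07, adjusted p = 1.96e-05). In ΔTAD macrophages 13 of the 17 higher members were in the second stretch, where 0 were lower and the median was 0.13, and 4 were in the first, where the median was 0.05. Without ΔTAD replicate 1 these counts were 10 and 2. With library size alone 3 were higher and 1 lower in the second stretch, 1 was higher and 2 lower in the first, and these medians were 0.05 and -0.03.

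**Figure D4:**
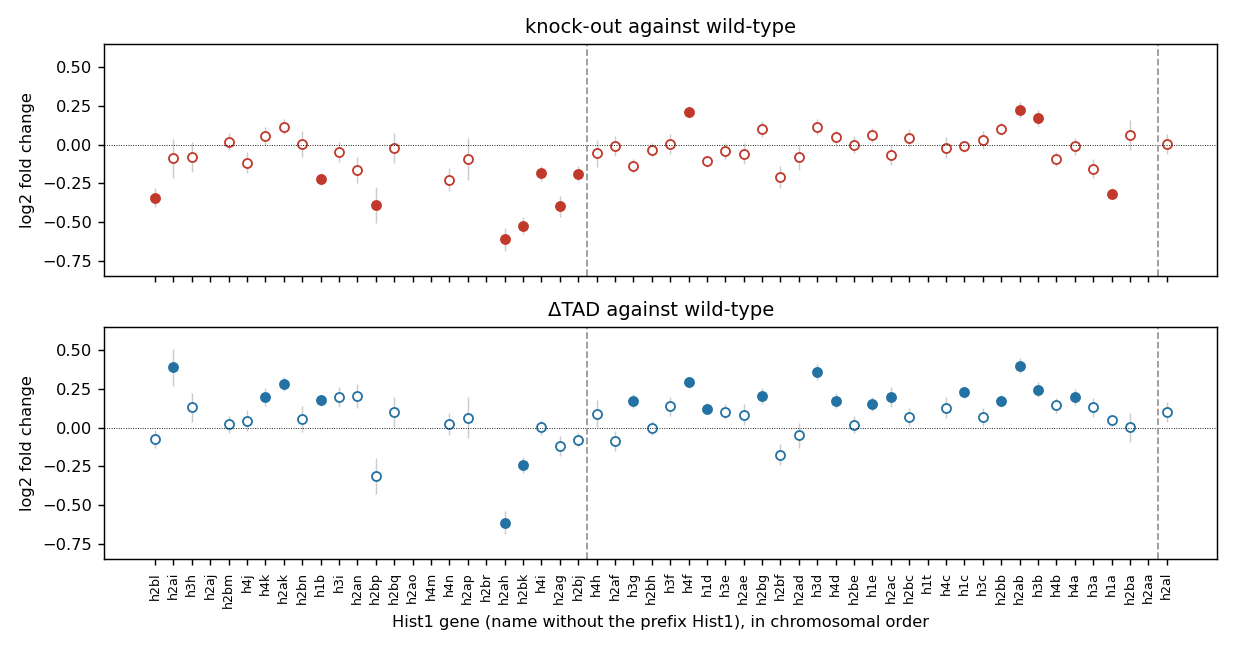
Log2 fold change of the tested Hist1 genes in chromosomal order, with the SE as grey lines and filled points for an adjusted p under 0.01. Dashed lines mark gaps over 1000 kb. In the knock-out, 8 of the 9 filled points under 0 are left of the first dashed line.

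Many H2A and H2B genes are arranged head to head around a shared promoter. Among the members 15 head-to-head pairs lay within 1000 bases, 1 of them of H2B with H3, and 11 of them with both genes tested, and in 7 of 11 both genes had the same sign in the knock-out and in 8 of 11 in ΔTAD macrophages. Hist1h2ah with Hist1h2bk and Hist1h2ag with Hist1h2bj were the pairs in which both genes fell in the knock-out, and only the former pair fell in ΔTAD macrophages. The widest split in the knock-out was in Hist3. Hist3h2a, which starts 172 bases from Hist3h2bb-ps, had 2.44, 2.60 and 2.48 CPM in the wild-type, 2.64, 3.32 and 3.12 in the knock-out and 1.89, 1.63 and 2.52 in ΔTAD libraries, and was not called (0.26 ± 0.19 and -0.31 ± 0.20). Its transcript overlaps Trim17 on the same strand, so its count is uncertain. Of 7 other genes tested within 100 kb of Hist3, none was called in the knock-out, and in the ΔTAD 1 was higher and 2 lower. The shares over all genes tested were 22.8% higher and 22.4% lower in the knock-out, and 26.3% and 23.4% in the ΔTAD. In the knock-out 5 of these 7 genes were under 0 and 2 above (median -0.15), and in the ΔTAD 6 and 1 (median -0.32). The lowest in the knock-out were Gm44313, 2310058D17Rik and Zfp39, at -0.77, -0.68 and -0.41 (adjusted p = 0.0249, 0.0209 and 0.0120). Each of these had no overlap with the wild-type libraries. Gm44313 lies within Hist3h2a on the opposite strand and had 11 to 36 reads per library. The strand setting of the counting is not known, so the count of Gm44313 is uncertain. Prss16, a serine protease gene and the only gene other than histones tested within 100 kb of Hist1h2ah, was lower in both, from 1.15, 1.39 and 1.39 CPM to 0.738, 0.242 and 0.227 (-1.64 ± 0.36, adjusted p = 4.39e-04) and to 0.280, 0.384 and 0.333 (-1.92 ± 0.37, adjusted p = 9.48e-05).

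Genes that act on histone mRNAs or in the same phase of the cell cycle were taken as lists. Of all genes tested, 22.8% were called higher and 22.4% lower in the knock-out, and 26.3% and 23.4% in the ΔTAD. Of 21 genes for histone gene transcription, 3′ processing and decay, 6 fell (28.6%) and 2 rose (9.52%) in the knock-out (median -0.09). In ΔTAD macrophages 11 fell (52.4%) and 5 rose (23.8%), with a median of -0.11. The rises there numbered 1 with library size alone and 3 without ΔTAD replicate 1. The largest changes in the knock-out, named after their values were seen, were in Cpsf3 and Cpsf2, subunits of the 3′ cleavage machinery, which fell by 0.87 and 0.55 there and by 0.73 and 0.42 in the ΔTAD, and in Cramp1l, which rose by 0.57 and 0.46. Slbp, the stem-loop binding protein, had 74.0 ± 2.14 CPM in the wild-type, gave 0.01 in the knock-out and rose by 0.13 in the ΔTAD (adjusted p = 0.00346), a call lost in 7 of 17 refits, including DESeq2, library size alone and each ΔTAD library left out. Npat, the transcriptional activator, gave 0.01 and fell by 0.21 in the ΔTAD (adjusted p = 6.77e-05). Casp8ap2, the histone locus body protein FLASH, gave 0.08 and fell by 0.14, a call lost in 5 of 17 refits, including the omission of wild-type replicate 2 or 3 or ΔTAD replicate 2 or 3. Lsm10 and Lsm11, subunits of the U7 snRNP, were not called, with values of -0.09 and -0.11 in the knock-out and 0.09 and -0.09 in the ΔTAD. Zfp473, a U7-associated zinc finger protein, gave -0.46 (adjusted p = 0.0195) and -0.75 (adjusted p = 4.06e-04).

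Of 31 S-phase and replication genes, 10 fell (32.3%) and 4 rose (12.9%) in the knock-out (median -0.08). In the ΔTAD 4 fell (12.9%) and 10 rose (32.3%), with a median of 0.04. In the knock-out 18 were lower (58.1%) and 1 higher (3.23%) than in the ΔTAD (median -0.14), against 19.1% and 13.9% of all genes tested. With library size alone 6 fell and 2 rose in the knock-out, 6 fell and 4 rose in the ΔTAD, and 2 were lower and 1 higher in the direct comparison. Without ΔTAD replicate 1, 7 fell and 8 rose in the ΔTAD, and 14 were lower and 2 higher in the direct comparison. Their part in the histone values was not tested. Rrm2, a ribonucleotide reductase subunit, went from 462 ± 11.2 CPM to 249 in the knock-out and 273 in the ΔTAD (-0.89 and -0.76). Ccne1, cyclin E1, fell by 0.57 in the knock-out and by 0.19 in the ΔTAD, with a direct difference of -0.38 ± 0.04 (adjusted p = 9.30e-08). Of 18 histone chaperone and assembly genes 4 rose (22.2%) and 6 fell (33.3%) in the knock-out, and 5 rose and 5 fell (27.8% each) in the ΔTAD. The shares over all genes tested were 22.8% and 22.4% in the knock-out, and 26.3% and 23.4% in the ΔTAD. Chaf1a, the large subunit of CAF-1, rose by 0.48 and 0.62, and Daxx, a chaperone of H3.3, by 0.40 and 0.46.

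Histone variant genes listed as replication-independent, most of them with polyadenylated mRNAs, numbered 11 with 9 tested. In the knock-out 3 rose (33.3%) and 1 fell (11.1%), against 22.8% and 22.4% of all genes tested. In the ΔTAD 4 rose (44.4%) and 2 fell (22.2%), against 26.3% and 23.4%. H2afv, an H2A.Z gene, rose from 7.83, 7.58 and 6.24 CPM to 14.8, 16.4 and 14.8 in the knock-out and 15.2, 14.3 and 16.4 in the ΔTAD (1.08 in both, adjusted p = 9.91e-10 and 7.72e-10). H2afz, the other H2A.Z gene, rose by 0.26 and 0.39. Of 6 noncoding RNAs that, like most of these histone mRNAs, carry no poly(A) tail, 3 were tested. Rn7sk rose by 0.27 in the knock-out, and all of Rn7sk, Rpph1 and Rn7s2 rose in the ΔTAD, by 0.24, 0.48 and 0.33. The ΔTAD calls of Rn7sk, Rpph1 and Rn7s2 were lost in 4, 4 and 5 of 17 refits, each with DESeq2 and without wild-type replicate 2 or ΔTAD replicate 3, those of Rpph1 and Rn7s2 also without wild-type replicate 3, and those of Rn7sk and Rn7s2 also without ΔTAD replicate 1. The knock-out call of Rn7sk was lost with DESeq2 and without knock-out replicate 3. Their part in the histone values was not tested.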

How the data were processed

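RNA from 9 libraries, 3 per genotype, was sequenced as 50-base single-end reads. Per the labels and the study's methods, the authors used Trimmomatic for trimming and HISAT2 for alignment to GRCm38, and deposited raw counts per Ensembl gene made by HTSeq, whose mode and strand setting are not given in the sources used here. Counts ranged from 16113306 to 20981829 per library on genes. Symbols, exon lengths and transcripts came from GENCODE M21, which matched 55227 of 55487 identifiers, and promoters from RefSeq GRCm38.p6. Genes were kept by edgeR's filter (minimum count 10, total 15), which left 14312. All 9 libraries were fitted together in edgeR 4.0.16 (R 4.3.3), with trimmed mean of M-values scaling, a quasi-likelihood test, two-sided, and Benjamini-Hochberg adjustment over all genes tested, called at 0.01. The script was tested on simulated data. Standard errors are the log2 fold change over the root of the test statistic. Alternatives were DESeq2 1.42.0, limma 3.58.1, other scalings, filters and thresholds, a replicate block and each library left out. Named genes were the 3 highest per kb in each class, up to 4 highest and lowest non-overlapping calls per comparison, tested Hist2 to Hist4 genes, opposite calls, 6 processing factors, and the 2 largest called changes of each other list. Any other named gene was picked with its values in view. The members and lists were chosen with earlier results of these data known. Intervals of counts cover counting error only.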

Additional observations from a re-analysis of the deposited data

How the results depend on the processing

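Of the 165 recomputed counts and medians of the histone genes, 144 stayed near the main value, 19 moved further and 2 turned sign. Near meant within a set fold of the main count, or within the spread of replicates for a median, so size held only loosely. The 165 include refits without a library of the genotype not compared. In knock-out against wild-type, 5 were higher at an adjusted p under 0.05, and a fold limit of 1 on the log2 scale left 0 higher and 2 lower. In ΔTAD against wild-type, DESeq2 called 11 higher and library size alone 4, with the median turning to -0.017, and the fold limit left 0 higher and 2 lower. In knock-out against ΔTAD, library size alone gave 5 lower, 1 higher and a median of -0.069, testing every gene with at least 1 count gave 32 lower, an adjusted p under 0.05 gave 1 higher, and the fold limit left 0 lower. Library size alone does not correct for composition, and the cause of the other differences was not tested.

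Leaving out each library in turn gave 2 to 6 higher and 10 to 17 lower in knock-out against wild-type (median -0.089 to 0.0024), 9 to 23 higher and 5 to 7 lower in ΔTAD against wild-type (median 0.047 to 0.12), and 0 to 1 higher and 14 to 24 lower in knock-out against ΔTAD (median -0.17 to -0.11). The highest knock-out count and the sign change came without wild-type replicate 1. Same-numbered libraries did not deviate together (correlations -0.07 to 0.02), so the numbers were not taken as a pairing. With the replicate block the counts were 3 and 13, 19 and 6, and 0 and 22. None of the 60 member calls changed sign in the 17 refits, and 25 of them were made in every refit.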
